A study of Mus musculus with 3 samples.

Results

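The 10 genes described here are established transcriptional targets of the tumour suppressor p53: Cdkn1a, Ccng1, Mdm2, Eda2r, Trp53inp1, Zmat3, Plk2, Psrc1, Aen and Phlda3. They were taken by name from a table of 34617 gene rows, and all 10 were found. They were chosen by name and by measured values, the higher levels of several of them in the O/Tet3 library, so their difference between the libraries is a description and not a test. The series holds 3 mouse samples, of which 2 are RNA libraries from cells sorted out of the main olfactory epithelium at an age of 4 weeks. For the mOSN library, cells were positive for OMP-ires-EGFP, a green reporter made together with olfactory marker protein (Omp), in strain C57BL/6J. The O/Tet3 library came from sorted cells of OMP-tTA / tetO-Tet3-GFP mice of strain Fvb, in which a transactivator made from Omp switches on a transgene for Tet3, one of the enzymes that turn 5-methylcytosine into 5-hydroxymethylcytosine. Omp is a gene of mature olfactory sensory neurons, so the transgene is driven in those cells. The fluorescence by which the O/Tet3 cells were sorted and the number of animals behind each library are not given in the sources used here. The third sample, immunoprecipitated DNA of O/Tet3 mice, was not analysed here. Each group has 1 library, and transgene, reporter, strain and library differ together. Xist, an RNA of female cells, also differed, at 0.0137 in mOSN cells and 5.79 in O/Tet3 cells. The Y-linked genes Uty (8.57 and 9.28) and Ddx3y (4.09 and 5.54) were detected in both. The sex make-up of the libraries may therefore differ too. All these contributions cannot be told apart, and no difference has a replicate check.

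p53, encoded in the mouse by Trp53, is a transcription factor that is kept scarce by the ubiquitin ligase Mdm2 and accumulates when cells meet DNA damage or other stress. It then switches on genes that arrest the cell cycle, repair DNA or promote cell death, and Mdm2 is itself a target, which closes a negative feedback loop. In neurons, which do not divide, p53 is best known for its part in the response to injury and in cell death. It binds DNA as a tetramer, at pairs of a consensus stretch of 10 bases.

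The promoter sequences show where such consensus stretches lie near the starts of these genes. RefSeq promoter windows of 300 bases, from 250 before to 50 after a transcript start, were given for 8 of the 10 genes (build GRCm38.p6, not the mm9 build of the expression table). Trp53inp1 and Zmat3 had no match. The p53 decamer consensus, which reads the same on both strands, was present in windows of 4 of the 8 genes, Cdkn1a, Ccng1, Mdm2 and Aen, and in 8.36% of all 32851 windows (9.55% of genes). The stretches that hold it are printed 5′ to 3′ on the strand of the gene, with the matching bases in capitals.
Cdkn1a: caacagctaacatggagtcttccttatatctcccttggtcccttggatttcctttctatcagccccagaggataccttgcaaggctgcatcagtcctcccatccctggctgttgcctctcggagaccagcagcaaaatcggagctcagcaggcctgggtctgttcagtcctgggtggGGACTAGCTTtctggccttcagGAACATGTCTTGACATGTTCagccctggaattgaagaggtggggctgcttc
Ccng1: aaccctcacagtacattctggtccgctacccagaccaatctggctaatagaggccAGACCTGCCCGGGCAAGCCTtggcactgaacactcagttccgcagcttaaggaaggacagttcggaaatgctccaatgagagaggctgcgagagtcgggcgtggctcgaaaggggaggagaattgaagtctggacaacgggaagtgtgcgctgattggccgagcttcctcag
Mdm2: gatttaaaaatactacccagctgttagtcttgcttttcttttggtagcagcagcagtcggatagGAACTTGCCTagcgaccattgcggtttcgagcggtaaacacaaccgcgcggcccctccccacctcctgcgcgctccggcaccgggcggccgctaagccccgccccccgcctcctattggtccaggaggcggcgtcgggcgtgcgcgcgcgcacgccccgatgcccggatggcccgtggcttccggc
Aen: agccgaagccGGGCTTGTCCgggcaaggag

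The Cdkn1a stretch is chr17:29090729-29090978 on the plus strand, the 250 bases before the upstream of its 2 listed starts, and the window of the other start held no decamer. It holds 1 decamer that begins 73 bases before the start and a run of 20 bases that begins 51 bases before it. That run matched 2 adjoining decamers with 1 mismatch. The Ccng1 stretch is chr11:40755310-40755536 on the minus strand, and its capitals mark a run of 20 bases that begins 195 bases before the start, likewise with 1 mismatch. Runs of 20 bases with at most 1 mismatch were found in 29 of the 32851 windows (0.0883%), among them these 2 genes. The Mdm2 stretch, chr10:117710759-117711008 on the minus strand, holds a single decamer that begins 186 bases before the start. The Aen stretch, chr7:78895927-78895956 on the plus strand, is the first 30 bases of its longer transcript, and its decamer lies 121 bases before the second listed start. The windows of Eda2r, Plk2, Psrc1 and Phlda3 held no decamer, which says only that these letters are not in those windows. A match is a description of sequence and not evidence of binding. Because the genes were chosen as p53 targets, nothing is read from their share with a decamer against that of all windows.

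Levels are the deposited values on a linear scale, recovered from log2(value + 1), in a unit the table does not name. Since length scaling is not stated, levels were compared between libraries and not between genes. Sums over marker lists are the exception, and they weight genes in that unnamed unit. Rows that reached a value of 1 in at least 1 library were compared, and a 2-fold difference of value + 1, which is a log2 ratio of 1, was needed to call a row higher or lower. By this rule 9 of the 10 genes were higher in O/Tet3, 0 were lower, and Mdm2 lay within the bound. Of all 12943 compared rows, 16.5% were higher and 12.0% lower. Because the choice of the genes used this contrast, nothing is read from the difference between these shares. The median log2 ratio of the 10 genes was 2.25 and that of all compared rows was 0.21. In bulk RNA, a smaller share of cells with a transcript and less RNA per cell cannot be told apart.

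**Figure D1:**
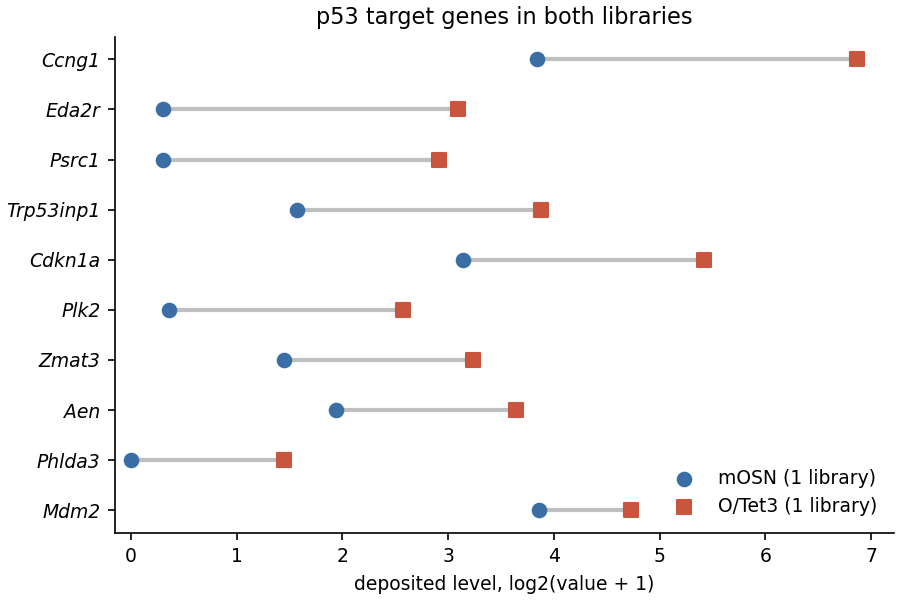
Level of each of the 10 genes in the mOSN library (circles) and the O/Tet3 library (squares) on the log2(value + 1) scale, ordered by the difference. Each symbol is 1 library, and the square lies to the right of the circle for all 10 genes, with the longest line for Ccng1 (log2 ratio 3.03) and the shortest for Mdm2 (0.87).

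The genes that act on the cell cycle were all higher in O/Tet3. Cdkn1a encodes p21, an inhibitor of cyclin-dependent kinases and the main executor of cell cycle arrest by p53. Its value was 7.81 in mOSN cells and 41.9 in O/Tet3 cells, 5.36-fold higher. On the log2(value + 1) scale the ratio was 2.28, and 273 compared rows had a larger one. Ccng1 encodes cyclin G1, which brings a phosphatase to Mdm2. Its value was 13.3 in mOSN cells and 116 in O/Tet3 cells, 8.73-fold higher. The log2 ratio of 3.03 was the largest of the 10, and 131 rows lay above it. Plk2, a polo-like kinase that also acts at synapses, had a value of 0.285 in mOSN cells and 4.95 in O/Tet3 cells (log2 ratio 2.21). Psrc1 encodes a microtubule-binding protein of the mitotic spindle. Its value was 0.235 in mOSN cells and 6.53 in O/Tet3 cells (log2 ratio 2.61). Plk2 and Psrc1 were thus below the floor of 1 in mOSN and above it in O/Tet3.

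Mdm2, the ligase that marks p53 for degradation, differed least. Its value was 13.5 in mOSN cells and 25.4 in O/Tet3 cells, 1.88-fold higher, with a log2 ratio of 0.87. Of the compared rows, 79.3% had a lower ratio than Mdm2, against 92.6% to 98.98% for the other 9 genes. Mdm4, the paralog of Mdm2 that binds p53 without degrading it, had a value of 10.6 in mOSN cells and 15.8 in O/Tet3 cells (log2 ratio 0.54), also within the bound.

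The genes tied to cell death and survival signalling were higher as well. Eda2r encodes a receptor of the tumour necrosis factor family that binds ectodysplasin A2. Its value was 0.232 in mOSN cells and 7.54 in O/Tet3 cells, 32.4-fold higher on the linear scale (log2 ratio 2.79). Eda2r lies on the X chromosome, and Xist, the RNA of the inactive X in female cells, had a value of 0.0137 in mOSN cells and 5.79 in O/Tet3 cells, and Uty, on the Y chromosome, had 8.57 and 9.28. The part of this difference in the Eda2r values was not tested. Trp53inp1, a stress protein that modifies p53 activity and takes part in autophagy, had a value of 1.96 in mOSN cells and 13.7 in O/Tet3 cells, 6.97-fold higher (log2 ratio 2.31). Aen encodes a nuclease active in apoptosis. Its value was 2.82 in mOSN cells and 11.5 in O/Tet3 cells, 4.07-fold higher (log2 ratio 1.71). Phlda3, whose product holds back the survival kinase Akt, was listed at 0 in mOSN cells and had a value of 1.72 in O/Tet3 cells. Since a listed 0 may stand for an estimate that failed, no fold is given for Phlda3. Zmat3 encodes an RNA-binding zinc finger protein that affects splicing. Its value was 1.72 in mOSN cells and 8.39 in O/Tet3 cells, 4.87-fold higher (log2 ratio 1.79).

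The 10 genes differed in how firmly their mOSN levels were measured. Cdkn1a, Ccng1, Mdm2, Trp53inp1, Zmat3 and Aen reached 1 in both libraries. Among these 6, the folds ran from 1.88 for Mdm2 to 8.73 for Ccng1. Eda2r, Plk2, Psrc1 and Phlda3 entered the comparison through O/Tet3 alone, so they had to be higher there or close to the floor. Read counts are not in the table, but low values of olfactory receptor genes move in steps, of about 0.0265 in mOSN cells and 0.0487 in O/Tet3 cells. At that rate the mOSN values of Eda2r, Psrc1 and Plk2 would rest on about 8.8, 8.9 and 10.7 reads. If values are scaled by length, these counts would be larger for transcripts longer than a receptor's. The linear folds of these genes, 32.4, 27.8 and 17.4, therefore carry a wider counting error than those of the other genes. The log2(value + 1) scale shrinks them.

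**Figure D2:**
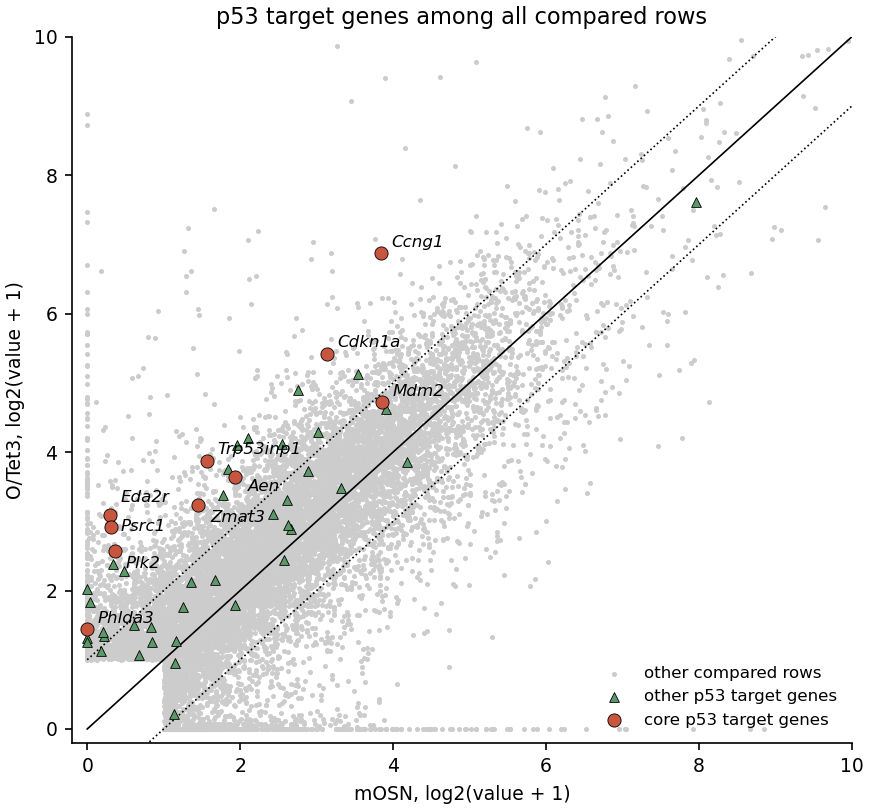
Level in O/Tet3 against level in mOSN, both as log2(value + 1), for compared rows (grey), the 10 core genes (named circles) and 38 other p53 target genes (triangles). The solid line marks equal levels and the dotted lines a 2-fold difference of value + 1. Rows above 10 in either library (30 rows) lie outside the axes. 9 of the 10 named genes lie above the upper dotted line and Mdm2 lies just below it.

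The RNA of p53 itself was also higher in O/Tet3. Trp53 had a value of 0.393 in mOSN cells and 6.04 in O/Tet3 cells, 15.4-fold higher (log2 ratio 2.34). It passed the floor through O/Tet3 alone, and at the receptor rate its mOSN value would be about 14.8 reads, so the limit given for Plk2 applies to this fold too. Its relatives Trp63, at 0.0261 in mOSN cells and listed at 0 in O/Tet3 cells, and Trp73, listed at 0 in both, were not compared. Cdkn2a, whose product p19Arf restrains Mdm2, was listed at 0 in both libraries. Of 23 compared genes of the p53 family and its regulators, 6 were higher (26.1%) and 1 was lower, against 16.5% and 12.0% of all compared rows, and the median log2 ratio was 0.24 against 0.21 over all rows. Among the 21 that reached 1 in both libraries, 4 were higher (19.0%, against 13.1% of such rows). The higher genes besides Trp53 were the damage kinase Chek2, at 0.170 in mOSN cells and 1.64 in O/Tet3 cells, the p53-binding repair protein Trp53bp1, at 13.7 and 35.8, and the ribosomal proteins Rpl5, Rpl11 and Rpl23, which can bind Mdm2. Rpl5 had 39.5 in mOSN cells and 145 in O/Tet3 cells, Rpl11 had 19.6 and 63.8, and Rpl23 had 70.04 and 223. The lower gene was Setd7, a lysine methyltransferase, at 10.9 in mOSN cells and 3.77 in O/Tet3 cells. The damage kinase Atm had 2.20 in mOSN cells and 5.39 in O/Tet3 cells and stayed just under the bound, and its relative Atr had 3.30 and 3.80.

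A wider list of 50 other p53 target genes was read beside the 10. Of these, 38 were compared, 16 were higher and 0 lower, a share of 42.1% higher where 16.5% of all compared rows were. Among the 23 that reached 1 in both libraries, 8 were higher (34.8%) and 0 lower, against 13.1% higher and 6.50% lower of such rows in all. The median log2 ratio of the 38 was 0.81. The largest ratios belonged to Dglucy, listed under its older name 9030617O03Rik, at 2.89 in mOSN cells and 16.3 in O/Tet3 cells, the ribosomal protein relative Rps27l, at 5.75 and 28.8, the antiproliferative immediate early gene Btg2, at 3.29 and 17.5, and Pidd1, listed as Lrdd, a scaffold for caspase activation, at 0.258 and 4.19. Bax, which opens the mitochondrial outer membrane in apoptosis, had 2.59 in mOSN cells and 12.5 in O/Tet3 cells, 4.81-fold higher (log2 ratio 1.91).

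The other targets did not all follow. Of the 38 compared genes, 22 lay within the bound. The 12 that stayed below the floor in both libraries were not compared, so no direction was called for them. They included 2 death genes of the Bcl2 family, Bbc3 at 0.431 in mOSN cells and 0.547 in O/Tet3 cells, and Pmaip1 at 0.134 and 0.966. The death receptor Fas, listed at 0 in mOSN cells and at 0.375 in O/Tet3 cells, was also among them. The values of Bbc3, Pmaip1 and Fas were each higher in O/Tet3. Among DNA repair targets, Xpc had 5.35 in mOSN cells and 6.403 in O/Tet3 cells, and Ddb2 had 4.95 and 4.41. These 5 genes were singled out after their values were seen. The list was drawn up with earlier results of these data known, and no test of it was possible with 1 library per group.

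Paralogs of the 10 genes, which are not all p53 targets, gave a further point of reference. Of 12 compared, 3 were higher (25.0%) and 0 lower, against 16.5% and 12.0% of all compared rows, and the median of the 12 log2 ratios was 0.29. Among the 8 that reached 1 in both libraries, 1 was higher (12.5%, against 13.1% of such rows). The higher ones were the p21 relatives Cdkn1b, at 0.0841 in mOSN cells and 1.30 in O/Tet3 cells, and Cdkn1c, at 0.493 and 4.70, and the cyclin G1 relative Ccng2, at 2.64 and 11.3. Trp53inp2, the relative of Trp53inp1, lay in the other direction, at 22.9 in mOSN cells and 11.3 in O/Tet3 cells (log2 ratio -0.96), within the bound. Cell cycle genes that p21 represses through the DREAM complex were nearly all below the floor. Of 24 listed, 4 were compared and all 4 lay within the bound. Their log2 ratios were all above 0, with a median of 0.66 against 0.21 over all compared rows. Of the 4, 3 passed the floor through O/Tet3 alone. The other 20 were under a value of 1 in both libraries, the division markers Mki67 (0.144 in mOSN cells, 0.0517 in O/Tet3 cells) and Top2a (0.491 and 0.793) among them. By distance over both log2 values, the rows closest to the median profile of the 10 genes were Sdr42e1, Spag16 and Gm11914. Over 2 libraries this says only that their levels were similar.

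**Figure D3:**
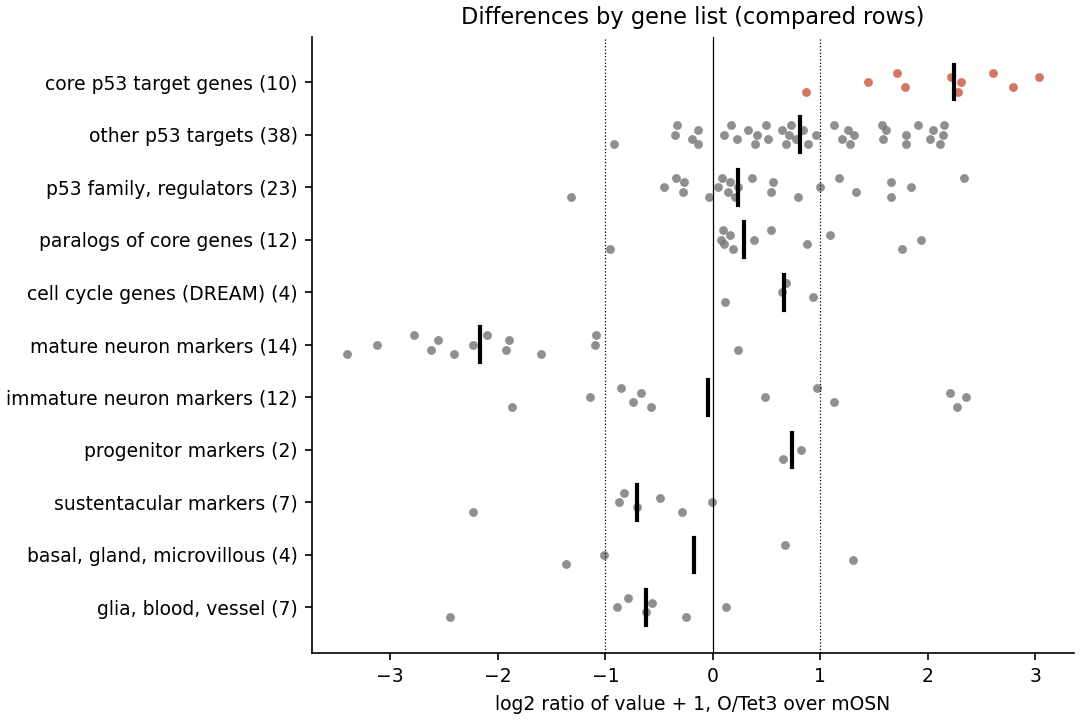
Log2 ratio of value + 1, O/Tet3 over mOSN, for each compared gene of each list (points, with the number compared in brackets), with the list median as a bar and dotted lines at a log2 ratio of 1 and -1. The core genes have a median of 2.25, other p53 targets 0.81, regulators 0.24, paralogs 0.29 and mature neuron markers -2.17.

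Differences between the libraries as wholes stood beside these values. The 6 largest rows held 90.0% of the summed value in mOSN cells and 96.9% in O/Tet3 cells. By the steps of receptor values, 1 read stood for a 1.84-fold larger value in O/Tet3 cells. The part of either in the ratios was not tested. Tet3, whose transgene the labels name for the O/Tet3 mice, had a value of 3.72 in mOSN cells and 145 in O/Tet3 cells. Omp, named in the labels of both libraries, had 298 in mOSN cells and 139 in O/Tet3 cells (log2 ratio -1.09). Of 14 mature olfactory neuron markers, all were detected in both libraries and 13 were lower in O/Tet3, with a summed value of 3677 in mOSN cells and 800 in O/Tet3 cells. Stoml3 alone made up 1518 and 285 of these sums. Of 12 compared immature neuron markers, 4 were higher and 2 lower, against 16.5% and 12.0% of all compared rows (median log2 ratio -0.04), with sums of 199 and 216. Gap43 had 6.41 in mOSN cells and 34.8 in O/Tet3 cells, and Dpysl5 had 7.98 and 1.46. Progenitor markers summed to 20.94 and 36.8, mostly Pcna, and Neurog1 and Neurod1 were each below 0.1 in both libraries. Sustentacular markers summed to 40.9 and 19.98. Of 7 compared, 0 were higher and 1, Ugt2a1 (15.6 and 2.53), was lower. Those of glia, blood and vessels summed to 78.1 and 47.5, mostly globins such as Hba-a2 (39.9 and 21.03) and Hba-a1 (13.97 and 15.3). Of 7 compared, 0 were higher and 1, the glial marker Fabp7 (4.78 and 0.0607), was lower. Of all compared rows, 16.5% were higher and 12.0% lower. Markers of basal, gland and microvillous cells summed to 5.78 and 5.13. Of 4 compared in that list, 1 was higher and 2 lower, against 16.5% and 12.0% of all compared rows. Pou2f3 (0.582 in mOSN cells, 2.90 in O/Tet3 cells) was higher, and Ascl3 (1.58 and 0) and Cftr (1.02 and 0) were lower. Krt5 and Krt14 were below the floor in both libraries, at 0.116 and 0.0645 in mOSN cells and listed at 0 in O/Tet3 cells. The part of the mature and immature neuron markers in the values of the p53 targets was not tested. With no strand setting stated, reads of overlapping genes could not be separated.

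The directions of the 10 genes were the same under each scaling tried. The median log2 ratio of the 9934 rows that reached 1 in both libraries was 0.21. With this shift subtracted, Ccng1 was at 2.83, Cdkn1a at 2.08, Mdm2 at 0.66 and Phlda3 at 1.24, and 9 of the 10 were still counted as higher. The same subtraction moved the share of higher rows among all called rows from 57.9% to 42.8%, and the share of higher rows among compared rows to 11.3%. Of the 38 other p53 targets compared, 14 were then higher (36.8%) and 1, Sfn, was lower, at 1.20 in mOSN cells and 0.162 in O/Tet3 cells. Of all 12943 compared rows, 1953 were then lower.

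**Figure D4:**
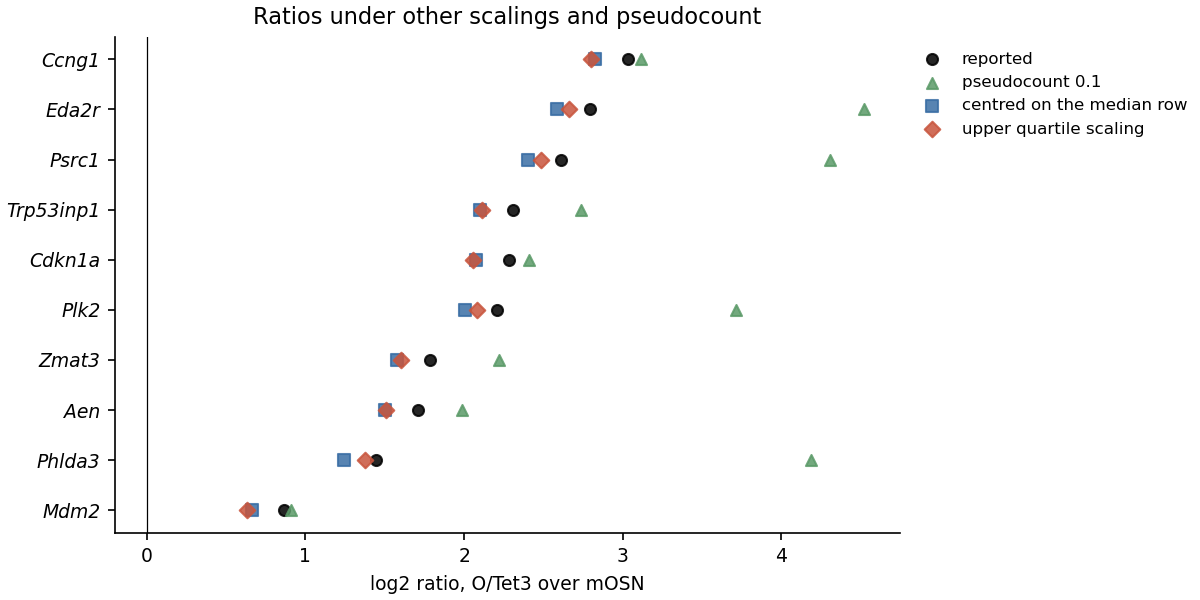
Log2 ratio of each of the 10 genes as reported (circles), with a pseudocount of 0.1 (triangles), after subtraction of the median row (squares) and after upper quartile scaling (diamonds), 1 library per group. All points lie to the right of 0, Mdm2 stays between 0.63 and 0.91, and the smaller pseudocount moves Eda2r, Psrc1, Plk2 and Phlda3 furthest, Eda2r to 4.52.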

How the data were processed

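Per the labels' protocols, ribosomal RNA was removed from RNA of sorted cells (RiboMinus kit) and libraries were built with the ScriptSeq kit. Cuffdiff, Bowtie, Bowtie2 and build mm9 are named in the submitters' processing notes, with no version and no role. Annotation and strand setting are not given in the sources used here. The authors' deposited table gives 1 log2 value per gene row and library and their log2 ratio, and holds no replicates. The lowest value is 0, and 2 to the deposited log2 value minus 1 has at most 6 significant digits in 99.4% of mOSN and 99.3% of O/Tet3 values above 0.01, so the scale is log2(value + 1). Columns were assigned by their names. Ratios, counts at 2-fold and list medians were computed with Python 3.11.15 and pandas 2.3.3. The counting was tested on simulated data whose changed rows all lay well above the floor. That check does not cover calls of rows near or below the floor. With 1 library per group no test was made. Of the 206 list entries all matched a row, 5 through RefSeq synonyms. A marker gene of the progenitor list is not reported here. The 10 genes, the lists, the tests and the rule for named genes (genes counted as higher or lower, the 4 largest where over 8, and some fixed genes) were chosen with earlier results of these data known. Genes named outside that rule, such as Atm, Atr, Trp63, Trp73, Cdkn2a, Mki67 and Top2a, were picked after their values were seen. Alternatives were the pseudocount, floor, fold and scaling.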

Additional observations from a re-analysis of the deposited data

How the results depend on the processing

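No paired analysis was possible because there was 1 library per group, and for the same reason no library could be left out. Counts were taken as moved beyond 1.5 times and log2 values beyond 0.5, and no result changed sign. With a pseudocount of 0.1 the median log2 ratio of the 10 genes was 2.93. Of the 38 other targets, 20 were then higher (52.6%) and 1 lower in place of 0. Of all 12943 rows, 3025 were then higher (23.4%) and 2025 lower. After centring 1 of the 38 was lower, as were 1953 of all 12943 rows. After upper quartile scaling 1 of the 38 was lower, as were 1942 of all 12986 rows then compared. With a floor of 5, 8 of the 17 other targets then compared were higher (47.1%), in place of 16 of 38 (42.1%). Of the 7149 rows then compared, 1401 were higher (19.6%) and 793 lower, in place of 2135 (16.5%) and 1552 of 12943. At 3-fold, 9 of the 38 other targets were higher (23.7%), and of all 12943 rows 745 were higher (5.76%) and 673 lower. An alternative chosen after seeing the data compared only rows that reached 1 in mOSN and also in O/Tet3. It kept 6 of the 10 genes, of which 5 were higher (83.3%). The 23 other targets then compared included 8 that were higher (34.8%). The 9934 rows then compared included 1301 that were higher (13.1%) and 646 that were lower. A stricter floor or fold counts fewer rows by construction. Of the single genes, the ratios of Eda2r (4.52), Psrc1 (4.31), Plk2 (3.71) and Phlda3 (4.19) moved with a pseudocount of 0.1. All 4 were below 1 in mOSN, Phlda3 being listed at 0, and by the step of receptor values the other 3 would rest on few reads there.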
